A study of Mus musculus with 42 samples.

Results

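The 33 genes described here encode the folding, quality control and signalling machinery of the endoplasmic reticulum. They were taken as a list of genes of the unfolded protein response and of secretory protein folding out of 54353 genes shared by all bulk libraries. By role the list holds 5 lumenal chaperones, 3 J-domain cochaperones, 4 thiol oxidoreductases, 3 other lumenal proteins, 6 sensors and regulators, 7 degradation factors, 4 proteins of translocation and export, and 1 other membrane protein. Of the 35237 genes with a column in the joined single-cell counts, 31 are on the list, and Manf and Herpud1 have none.

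The endoplasmic reticulum folds proteins bound for the membrane or for secretion, a load that is large in cells filled with cytolytic granules. When unfolded proteins build up, the sensors Ern1 (IRE1), Eif2ak3 (PERK) and Atf6 start the unfolded protein response, in which spliced Xbp1 and cleaved Atf6 raise chaperone and degradation genes. The PERK branch slows translation through eIF2 alpha and induces Ddit3 (CHOP) and Ppp1r15a (GADD34), and these genes also respond to amino acid shortage and other stresses through the same eIF2 alpha step.

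The study followed uterine tissue-resident NK cells (trNK) of C57BL/6 mice through early pregnancy and in culture with IL-21. Bulk RNA-Seq comprised 34 libraries in 4 experiments, with 2 libraries in every group. Single cells formed 1 joined set of sorted uterine NK1.1+NKp46+ cells. The mice carried no engineered allele in any group used here.

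The gestation groups were trNK cells sorted as CD45+NK1.1+NKp46+CD49a+CXCR6- from virgin mice and from pregnant mice on gestational day 6.5 (gd6.5) or 8.5 (gd8.5). The subset groups were sorted at gd8.5 from the same gate by CD55 and 4-1BB, low for both in trNK-V (virginal stage), intermediate in trNK-D (differentiating stage) and high in trNK-T (terminal stage). In the 72 h culture, trNK-V cells taken at gd6.5, as the study's text states, were kept without IL-21, with IL-21 at 20 ng/ml, or with IL-21 and 1 μM of the STAT3 inhibitor Stattic (iSTAT3). The Stattic dose is the label's, and the methods state it in mM, which was not settled. In the time course, wild-type trNK cells of gd6.5 mice received IL-15 with or without IL-21 at 20 ng/ml and were taken at 0, 6, 24 and 72 h. The study's text states that these too were trNK-V cells. Its methods place IL-15 in the medium of cultured trNK cells, without setting the 72 h culture apart. The labels do not say that replicates came from separate animals, so p-values measure the spread between these libraries, which may be technical.

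Libraries held between 11862089 and 66468883 counts. The defining trNK genes Itga1, Ncr1, Klrb1c and Eomes were detected in every library of the gestation and subset experiments, and summed to 227 to 1580 RPKM over all 34 libraries, lowest in the 72 h culture with IL-21 and iSTAT3. Libraries that stood apart were trNK-D replicate 2, where 12 plasma cell markers summed to 27700 RPKM (reads per kilobase of exon, scaled to library size) against 48.8 to 508 in the other 33 libraries, the virgin pair, and the 72 h pairs of the time course. The last 3 pairs are those replicates correlated least across genes, with a Pearson r of log counts scaled to library size of 0.870 for virgin, 0.766 at 72 h without IL-21 and 0.853 at 72 h with it. Mitochondrial genes took 8.44% and 11.77% of counts in the 72 h libraries without IL-21, 4.37% and 5.73% with IL-21, and 0.86% to 5.42% in the others. In bulk RNA, fewer expressing cells and less RNA per cell cannot be told apart.

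Promoter sequences of the list are shown first, since the chaperone genes are known to share a short response element there. RefSeq windows on GRCm38.p6, from 250 bases before to 50 bases after the transcription start, were found for 28 of the 33 genes. The endoplasmic reticulum stress element (ERSE) was searched as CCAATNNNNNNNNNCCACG on both strands. It lay in the windows of 8 of these 28 genes (28.6%), whereas 37 of 27025 genes with a window (0.137%) hold it. The 8 were Hspa5, Hsp90b1, Calr, Canx, Dnajc3, Pdia6, Creld2 and Syvn1, and Hsp90b1 carried it at 2 places. The variant ERSE-II, searched as ATTGG, any 1 base and CCACG on both strands, was found in Dnajb11 and Herpud1, 7.1% of the 28 genes against 0.0444% of genes. The core of the unfolded protein response element, TGACGTG, which overlaps the cyclic AMP response element, was found in Hspa5 and Sec24d, 7.1% of the 28 genes against 2.22% of genes. At least 1 of the motifs was found for 11 of the 28 genes (39.3%) against 2.39% of genes. A match is a description of letters and not of factor binding.

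The 250 bases before the RefSeq start are given for 4 folding genes that were called between trNK subsets below, in the direction of transcription, with motif matches in capitals. Hspa5 lies at chr2:34771840-34772089 (plus strand), Hsp90b1 at chr10:86705445-86705694 (minus strand), Pdia6 at chr12:17266339-17266588 (plus strand) and Creld2 at chr15:88819396-88819645 (plus strand). For Hspa5, Hsp90b1 and Pdia6 the annotation deposited with the counts starts further upstream, inside these stretches. An ERSE on the opposite strand reads as CGTGG followed by ATTGG.
Hspa5: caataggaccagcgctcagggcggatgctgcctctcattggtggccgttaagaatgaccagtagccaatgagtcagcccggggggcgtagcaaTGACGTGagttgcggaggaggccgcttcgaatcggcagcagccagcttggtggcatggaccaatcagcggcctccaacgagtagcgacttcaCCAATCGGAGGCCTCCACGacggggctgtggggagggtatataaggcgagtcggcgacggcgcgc
Hsp90b1: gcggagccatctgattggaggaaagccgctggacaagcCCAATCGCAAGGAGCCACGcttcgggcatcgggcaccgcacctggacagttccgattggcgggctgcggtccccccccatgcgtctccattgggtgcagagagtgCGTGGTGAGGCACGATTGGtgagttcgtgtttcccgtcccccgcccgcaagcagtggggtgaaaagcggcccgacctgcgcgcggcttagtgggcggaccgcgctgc
Pdia6: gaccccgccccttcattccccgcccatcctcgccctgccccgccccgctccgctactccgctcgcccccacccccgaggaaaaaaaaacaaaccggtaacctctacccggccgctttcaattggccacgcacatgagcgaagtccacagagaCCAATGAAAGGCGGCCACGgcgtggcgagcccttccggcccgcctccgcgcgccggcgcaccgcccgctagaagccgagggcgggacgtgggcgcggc
Creld2: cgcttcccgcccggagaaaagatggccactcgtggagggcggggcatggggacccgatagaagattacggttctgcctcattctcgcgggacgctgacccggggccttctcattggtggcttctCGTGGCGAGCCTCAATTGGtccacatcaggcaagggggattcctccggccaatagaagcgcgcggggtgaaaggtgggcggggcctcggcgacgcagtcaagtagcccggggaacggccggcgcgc

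Shorter stretches around the ERSE are given for the other 4 genes to compare its spacing and flanks. They lie at chr8:84847065-84847103 (minus strand) for Calr, chr11:50325790-50325828 (minus strand) for Canx, chr14:118937817-118937855 (plus strand) for Dnajc3 and chr19:6046522-6046560 (plus strand) for Syvn1.
Calr: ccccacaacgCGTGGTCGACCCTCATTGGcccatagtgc
Canx: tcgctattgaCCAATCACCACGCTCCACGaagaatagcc
Dnajc3: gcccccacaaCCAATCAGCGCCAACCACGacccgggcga
Syvn1: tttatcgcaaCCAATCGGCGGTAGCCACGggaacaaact

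Expression of the list differed widely in level between genes and experiments. Summed over the 33 genes, RPKM was 2058 and 3322 in virgin trNK cells. The gd6.5 libraries reached 4940 and 4264 in sum and those of gd8.5 reached 3339 and 3660. The sum was 2332 and 2273 in trNK-V, 3113 and 3670 in trNK-D, and 5366 and 6773 in trNK-T, so the 3 subsets did not overlap. In the 72 h culture it was 1781 and 1758 without IL-21, 2297 and 2974 with IL-21, and 2562 and 2461 with IL-21 and iSTAT3. The time course, made with another cDNA kit, ranged in sum from 973 at 72 h without IL-21 to 2838 at 6 h with IL-21. Levels are compared only within an experiment.

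**Figure D1:**
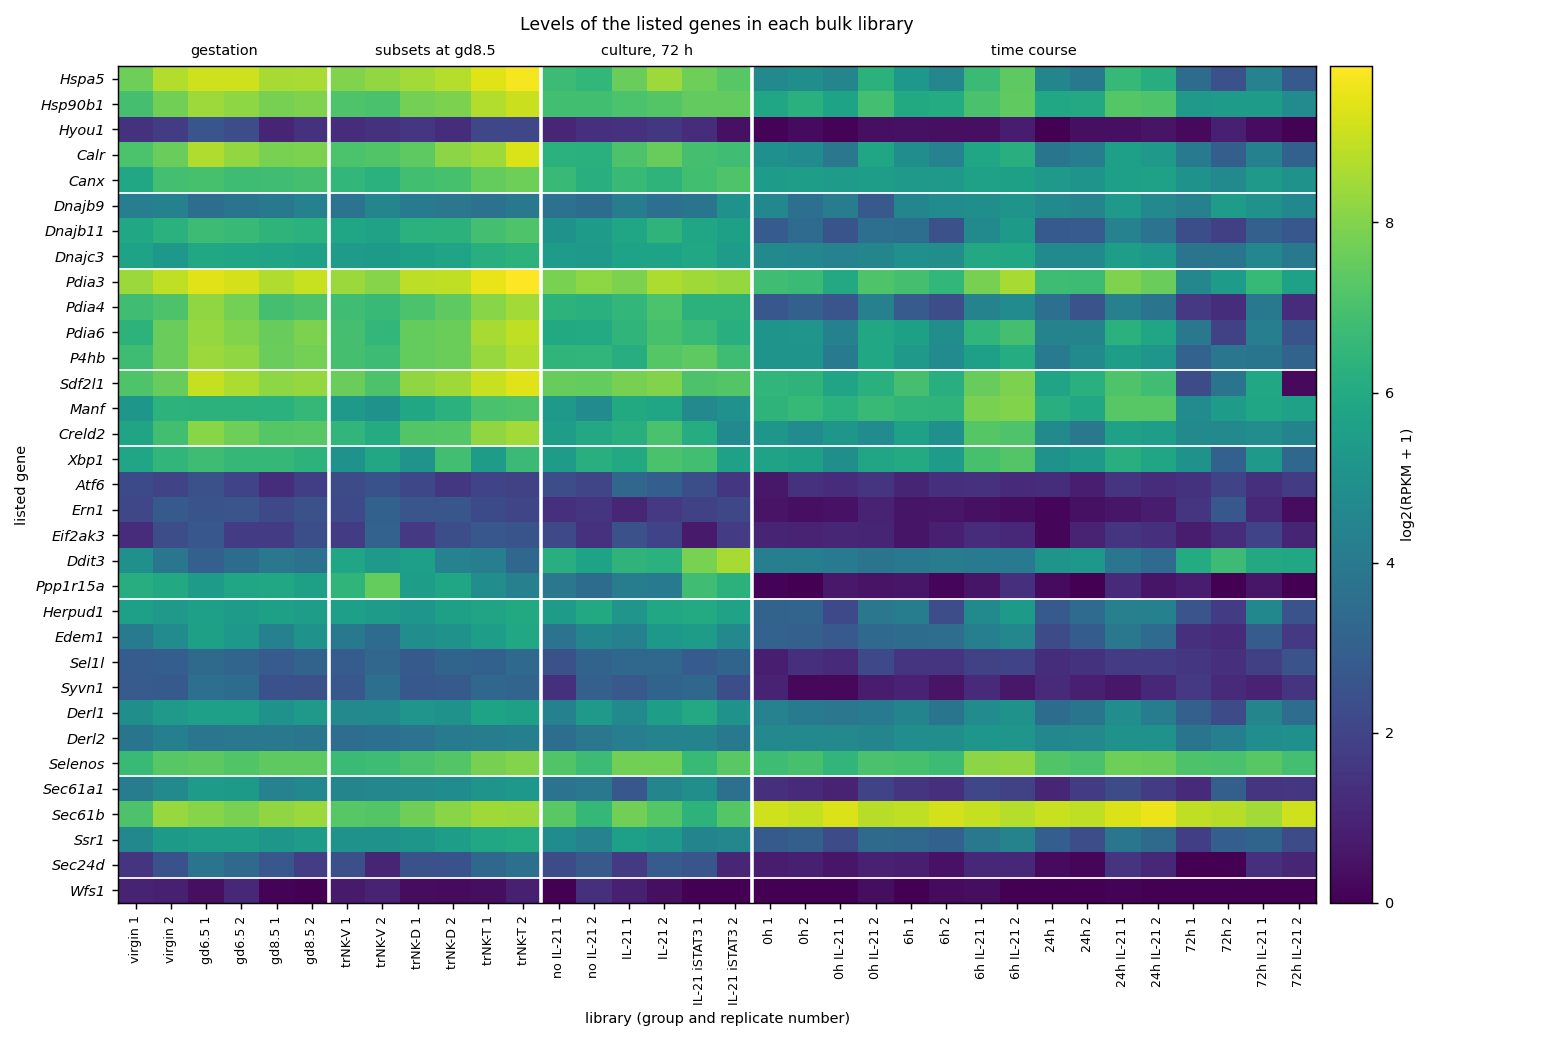
Levels of the 33 listed genes, as log2(RPKM + 1), in each of the 34 bulk libraries; rows are genes grouped by role (horizontal lines), columns are libraries grouped by experiment (vertical lines). Within the 6 subset columns, Hspa5, Hsp90b1 and Pdia6 are brightest in the 2 trNK-T libraries, where the summed RPKM of the list was 5366 and 6773.

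Genes entered a test where RPKM exceeded 10 in both libraries of at least 1 group. In this filter 26 of 33 passed in gestation, 25 in the subsets and in the 72 h culture, and 23 in the time course. The 3 stress sensors Atf6, Ern1 and Eif2ak3 passed in none of the experiments, nor did the chaperone Hyou1, the degradation adaptor Sel1l, the COPII coat gene Sec24d or Wfs1, a membrane protein of the reticulum. Atf6 ranged from 0.539 to 8.38 RPKM over the 34 libraries, with its highest values in the 72 h culture with IL-21 (8.38 and 6.75). Sec24d stood at 12.8 and 9.67 RPKM at gd6.5 against 1.84 and 4.59 in virgin cells, and at 8.94 and 11.3 in trNK-T against 4.26 and 1.02 in trNK-V, just outside the filter. Syvn1, the ubiquitin ligase of degradation from the reticulum, passed in gestation through gd6.5 only, and Ssr1, a subunit of the translocon-associated complex, passed in the time course through the 6 h libraries with IL-21 only. Dnajb11, Pdia4 and Herpud1 passed there only through the 6 h and 24 h libraries with IL-21, and Edem1 only through the 6 h libraries with and without IL-21. In the subsets, Edem1 passed through trNK-D and trNK-T, and Ddit3 through trNK-V and trNK-D. Ddit3 in gestation passed through the virgin and gd8.5 libraries and not those of gd6.5, and Ppp1r15a in the 72 h culture passed through both groups with IL-21 and not the untreated one. For these genes the filter itself favours the group that is high. A gene counts as called at a Benjamini-Hochberg adjusted p below 0.05 over all tested genes and a fold change above 2 (edgeR quasi-likelihood test). Counts by DESeq2, by limma-voom or without a single library stand without the share of all genes called in that setting. They show only how far the calls move.

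The clearest difference lay between the sorted subsets at gd8.5, compared to follow the genes across the stages of trNK differentiation. In trNK-T against trNK-V, 16 of 25 tested genes rose and 2 fell, while 8.05% of all 4683 tested genes were called higher and 13.1% lower. The median log2 fold change of the 25 was 1.21 against -0.01 for all genes. Those that rose cover every folding role. Those that fell, Ddit3 and Ppp1r15a, belong to the PERK branch, and 2 of 25 is not above the share of all genes called lower.

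Hspa5 (BiP), the main chaperone of the lumen, stood at 251 and 299 RPKM in trNK-V, 352 and 425 in trNK-D, and 655 and 839 in trNK-T. The 3 subsets did not overlap, and trNK-T against trNK-V gave a log2 fold change of 1.44 ± 0.20 (SE, n = 2 per group; edgeR adjusted p = 0.0051). Hsp90b1 (GRP94), which completes folding of selected clients, stood at 138 and 127, 218 and 240, and 414 and 534 RPKM in the same order. The Hsp90b1 values did not overlap between subsets either, with 1.84 ± 0.18 between trNK-T and trNK-V (edgeR adjusted p = 0.0023). For neither gene was the difference between trNK-D and trNK-V called. Calr and Canx, lectin chaperones that hold glycoproteins, gave 1.78 ± 0.36 (edgeR adjusted p = 0.013) and 1.21 ± 0.16 (edgeR adjusted p = 0.0041). Calr was the most variable of these, at 332 and 616 RPKM in the trNK-T libraries.

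Of the cochaperones, Dnajb11 stood at 54.7 and 50.4 RPKM in trNK-V, 77.5 and 78.9 in trNK-D, and 118 and 138 in trNK-T, and rose by 1.29 ± 0.15 on the log2 scale (edgeR adjusted p = 0.0039). Dnajc3 (P58IPK), an inhibitor of PERK as well as a cochaperone, had an adjusted p of 0.010 by edgeR but a log2 fold change of 0.86 ± 0.16, under the fold limit. Dnajb9 (ERdj4), a repressor of IRE1, gave -0.36 ± 0.34 and did not pass the test (edgeR adjusted p = 0.43). The 3 cochaperones thus ranged from below 0 to above the fold limit.

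The 4 thiol oxidoreductases, which form and reshuffle disulfide bonds, all rose. Pdia6 stood at 121 and 91.2 RPKM in trNK-V, 181 and 199 in trNK-D, and 375 and 477 in trNK-T, a log2 fold change of 2.01 ± 0.21 (edgeR adjusted p = 0.0026). P4hb gave 1.69, Pdia4 1.53 and Pdia3 1.47, with trNK-T above trNK-D and trNK-D above trNK-V in every library. Among the other lumenal proteins, Creld2, a small disulfide-rich stress protein, had the largest rise of the list, from 87.2 and 64.7 RPKM in trNK-V to 295 and 355 in trNK-T, with 147 and 150 in trNK-D. Its log2 fold change was 2.1 ± 0.20 (edgeR adjusted p = 0.0020). Manf, a secreted protein that binds BiP, gave 1.91 ± 0.22, and Sdf2l1, a partner of BiP and its cochaperones, gave 1.84 ± 0.22.

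Degradation genes were mixed. Edem1, which hands misfolded glycoproteins to degradation, stood at 14.6 and 9.98 RPKM in trNK-V, 27.5 and 31.9 in trNK-D, and 44.0 and 57.6 in trNK-T, a rise of 2.05 ± 0.24 on the log2 scale (edgeR adjusted p = 0.0039). Selenos (1.19) and Derl1 (1.02), parts of the retrotranslocation complex, also rose. Derl2, a relative of Derl1, gave 0.70 ± 0.17 and Herpud1, a scaffold of the degradation complex, 0.38 ± 0.21, the second with an adjusted p of 0.19 by edgeR. In translocation, Sec61b, a subunit of the Sec61 channel, rose by 1.16 ± 0.18 on the log2 scale, whereas Sec61a1 (0.68) and Ssr1 (0.95) passed the p limit and not the fold limit.

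Ppp1r15a, the phosphatase subunit that restores translation, stood at 85.9 and 181 RPKM in trNK-V, 45.1 and 54.4 in trNK-D, and 27.2 and 18.5 in trNK-T. It was lower in every trNK-T library than in any other, with a log2 fold change of -2.55 ± 0.39 against trNK-V (edgeR adjusted p = 0.0061). Ddit3, a transcription factor of the same branch, stood at 53.6 and 38.5, 46.1 and 19.4, and 17.3 and 8.86 RPKM, with -1.81 ± 0.50 (edgeR adjusted p = 0.033). The call for Ddit3 rested on single libraries, since its adjusted p was 0.11 without trNK-V replicate 1, 0.078 without trNK-V replicate 2 and 0.16 without trNK-T replicate 2. Calr likewise went to 0.069, 0.072 and 0.060 without these libraries, and Derl1 to a log2 fold change of 0.97 without trNK-T replicate 1.

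Xbp1, the factor spliced by IRE1, differed more between replicates than between subsets, at 32.0 and 58.0 RPKM in trNK-V, 33.2 and 114 in trNK-D, and 41.3 and 104 in trNK-T. Its log2 fold change in trNK-T was 0.69 ± 0.66 (edgeR adjusted p = 0.44). The counts do not tell spliced from unspliced Xbp1.

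**Figure D2:**
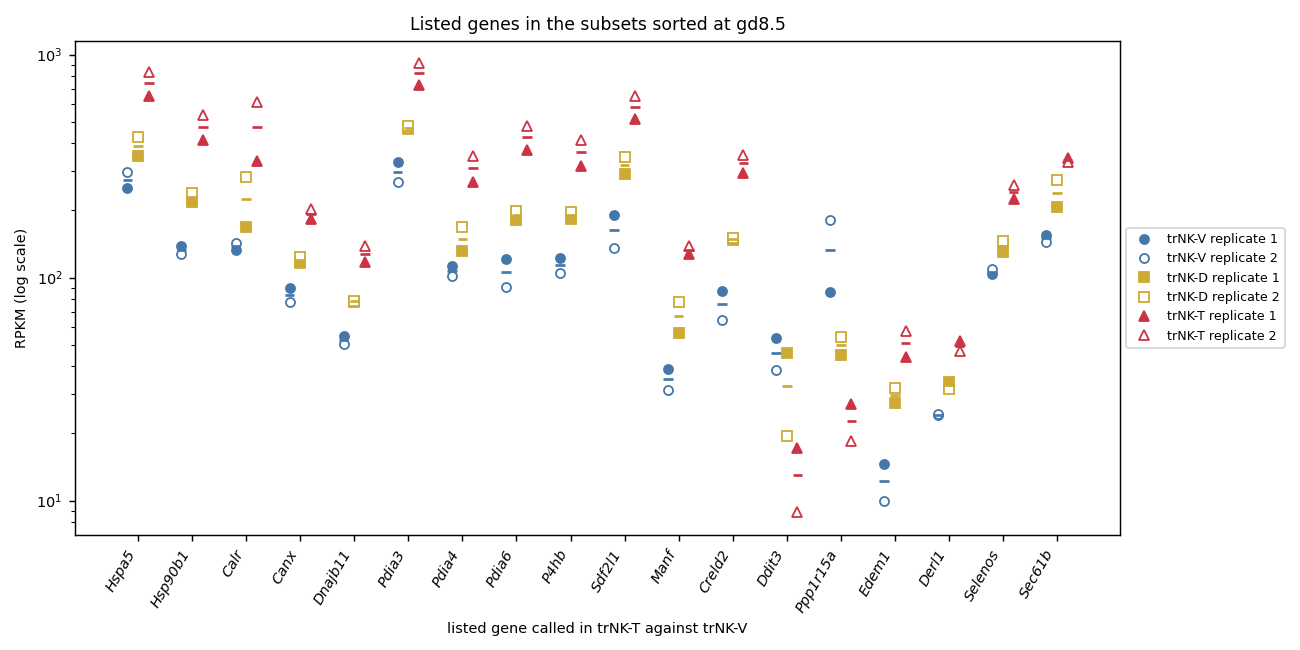
RPKM on a log scale of the 18 listed genes called in trNK-T against trNK-V; filled and open symbols are replicates 1 and 2 of trNK-V (circles), trNK-D (squares) and trNK-T (triangles), and short bars are group means. For Hspa5, trNK-V sits at 251 and 299, trNK-D at 352 and 425 and trNK-T at 655 and 839, whereas Ppp1r15a runs the other way.

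The intermediate subset gave no call against trNK-V. In trNK-D against trNK-V, 0 of 25 genes passed by edgeR, where 0.256% of all genes were called higher and 0.0641% lower. At an unadjusted p under 0.05 there were 16 of the 25, beside 939 of all 4683 genes. DESeq2 called 2 and limma-voom 0, and the median log2 fold change was 0.53 against 0.01 for all genes. The highest value was Edem1 at 1.28 ± 0.24 (edgeR adjusted p = 0.097) and the lowest Ppp1r15a at -1.41 ± 0.37 (edgeR adjusted p = 0.14). The count stayed at 0 without any 1 of the 4 libraries.

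In trNK-T against trNK-D, 3 of 25 genes rose and none fell, with 0.342% of all genes called higher and 1.41% lower. They were Creld2 (1.12 ± 0.19, edgeR adjusted p = 0.046), Pdia6 (1.16 ± 0.20, edgeR adjusted p = 0.047) and Hsp90b1 (1.04 ± 0.18, edgeR adjusted p = 0.047). The lowest value, Ddit3 at -1.32 ± 0.49, did not pass (edgeR adjusted p = 0.18). The count was 0 without any 1 of the 4 libraries, trNK-D replicate 2 included, where the adjusted p of the 3 genes was 0.086, 0.084 and 0.078. The median log2 fold change was 0.70 against -0.02 for all genes.

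Plasma cells, rich in this machinery, left transcripts in trNK-D replicate 2. There 10 of the 12 plasma cell markers exceeded 1 RPKM, with Jchain at 1700, Igkc at 21100, Igha at 4530 and Mzb1 at 18.0 RPKM, and Ighg1 and Ighg2c were at 0. In trNK-D replicate 1 only 5 exceeded 1 RPKM, and in the trNK-V and trNK-T libraries 3 or 4, with Mzb1 at 0 in all 5. The 12 summed to 178 to 319 RPKM in these 5 libraries, most of it Ighm at 169 to 298 RPKM. Ighm was not raised in trNK-D replicate 2, at 238 RPKM, and Derl3 stood there at 4.49 RPKM against 2.76 and 3.38 in trNK-T. In trNK-D replicate 2, 22 of 25 listed genes were above replicate 1, by a median of 0.19 on the log2 scale, with Xbp1 1.78 higher and Ddit3 1.25 lower. The trNK-T pair, without this plasma signal, differed in a like way, with 21 of 25 genes above replicate 1. There the median was 0.26, with Xbp1 at 1.33 and Ddit3 at -0.97. The share of all genes above replicate 1 was not computed for either pair, and what sets these differences was not tested. Leaving trNK-D replicate 2 out of the fit of trNK-T against trNK-V could not test for plasma transcripts, since it belongs to neither group. Their part in the trNK-D values was not tested. Macrophage markers summed to 12.3 and 99.0 RPKM in trNK-V, 33.7 and 51.9 in trNK-D, and 3.87 and 2.64 in trNK-T, and their part in the trNK-V values was not tested.

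Other marker lists also moved between trNK-V and trNK-T. The 6 T cell markers summed to 132 and 125 RPKM in trNK-V, 41.7 and 76.9 in trNK-D, and 22.2 and 14.4 in trNK-T, carried by Cd3g and Cd3d, with Cd8a at 0 in all 6 libraries. The 4 trNK genes summed to 1380 and 1390 RPKM in trNK-V, 1170 and 979 in trNK-D, and 799 and 644 in trNK-T. Both sums were lower from subset to subset without overlap, opposite to the folding genes. The sum of the trNK genes was carried by Ncr1 and Klrb1c. Eomes did not keep this order, at 47.9 and 44.7 RPKM in trNK-V, 35.6 and 29.1 in trNK-D, and 40.3 and 41.1 in trNK-T. Itga1 overlapped between trNK-V and trNK-D. The 5 mast cell markers summed to 1.61 and 0.131 RPKM in trNK-V, 1.74 and 6.91 in trNK-D, and 9.85 and 7.53 in trNK-T, higher in trNK-T like the folding genes, from Cpa3 and Cma1 alone, with Mcpt4, Tpsb2 and Tpsab1 at 0 in all 6 libraries. Neutrophil and monocyte markers summed to 70.1 and 63.0, 238 and 117, and 149 and 54.4 RPKM in the same order, nearly all from Ly6c2. Stromal markers summed to 42.1 RPKM in trNK-V replicate 1 and to 0.344 to 3.3 in the other 5 libraries. The part of these in the values of the list was not tested.

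Beyond the list, other genes of the secretory pathway also rose between trNK-T and trNK-V. Of 53 tested genes of folding, glycosylation, translocation and transport, 18 rose and 0 fell by edgeR, beside the 8.05% of all genes called higher, and their median log2 fold change was 0.78. The largest were Ero1l (2.20), the oxidase that recharges the disulfide isomerases, Ssr3 (1.77) of the translocon, Lman1 (1.72), a cargo receptor, and Rpn1 (1.69) and Stt3b (1.65) of the oligosaccharyltransferase. Lman1 entered the test only through trNK-T (16.3 and 15.2 RPKM, against 6.85 and 2.77 in trNK-V), and Ero1l only through trNK-D and trNK-T, so the filter favoured a rise of both. Ero1l was also the only one called in trNK-T against trNK-D (1.13).

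Across gestation few calls were made, and their number depended on single libraries. In gd6.5 against virgin, Sdf2l1 was the only 1 of 26 genes called, and it rose, while 3.17% of all 4504 genes were called higher and 3% lower. That count is near the share of all genes called higher. Sdf2l1 stood at 140 and 189 RPKM in virgin cells, 502 and 397 in the gd6.5 libraries, and 284 and 311 in those of gd8.5. All gd6.5 values lay above the others, with a log2 fold change of 1.37 ± 0.21 (edgeR adjusted p = 0.029). Creld2 had the highest value, from 52.9 and 115 to 274 and 205 RPKM, with 1.43 ± 0.36 (edgeR adjusted p = 0.056). Pdia4 passed the p limit (edgeR adjusted p = 0.039) with a log2 fold change of 0.98, under the fold limit.

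The lowest value at gd6.5 was that of Ddit3, at 29.5 and 13.6 RPKM in virgin cells and 7.15 and 10.1 at gd6.5, which did not pass (-1.41 ± 0.42, edgeR adjusted p = 0.080). The median log2 fold change of the list was 0.49 against -0.02 for all genes. An unadjusted p under 0.05 was found for 13 of 26, beside 1474 of all 4504 genes. The count was 12 without virgin replicate 2, and 0 without either gd6.5 library. In virgin replicate 2, 21 of 26 genes were above replicate 1, by a median of 0.57 on the log2 scale. Erythrocyte markers summed to 223 RPKM in virgin replicate 2 and 12.7 in replicate 1, and T cell markers to 28.5 and 264. The 4 trNK genes summed to 1240 and 1220 RPKM in virgin cells, 710 and 740 in the gd6.5 libraries, and 922 and 933 in those of gd8.5. The part of these markers in the gestation values was not tested.

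In gd8.5 against virgin no gene passed by edgeR, with 0.0222% of all genes called higher and 0.4% lower. Only 1 of 26 had an unadjusted p under 0.05, beside 638 of all 4504 genes, and DESeq2 and limma-voom called 0. The extremes were Sdf2l1 at 0.80 ± 0.21 (edgeR adjusted p = 0.21) and Ddit3 at -0.80 ± 0.42 (edgeR adjusted p = 0.43), and the count was 6 without virgin replicate 2. In gd8.5 against gd6.5, 0 of 26 genes passed by edgeR and 0% of all genes were called in either direction. There 4 had an unadjusted p under 0.05, beside 1071 of all 4504 genes, and DESeq2 called 1 and limma-voom 0. Syvn1 had the lowest value (-1.20 ± 0.23, edgeR adjusted p = 0.095), from 11 and 10.1 RPKM to 4.62 and 4.4, but it entered the test only through its gd6.5 level, so a higher value there was set by the filter. Ddit3 had the highest (0.62 ± 0.42, edgeR adjusted p = 0.41). Erythrocyte markers summed to 844 RPKM in gd8.5 replicate 2 and 0.251 in replicate 1.

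Of the other secretory genes, 3 of 50 rose and 0 fell at gd6.5 against virgin by edgeR, where 3.17% of all genes were called higher and the excess amounts to few genes. They were Rpn1 (1.23), Txndc5 (1.15), a further disulfide isomerase, and Ganab (1.01), a glucosidase of glycoprotein trimming. None of the 50 was called in the other 2 gestation comparisons.

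The 72 h culture asked what IL-21 does to these genes and what remains with STAT3 inhibited. With IL-21 alone, 0 of 25 genes passed by edgeR, with 0.289% of all 4158 genes called higher and 0% lower. At an unadjusted p under 0.05 there were 9, beside 382 of all 4158 genes. DESeq2 called 3 and limma-voom 0, and the median log2 fold change was 0.70 against -0.02 for all genes. Fitted log2 fold changes were above 0 for all 25 tested genes, from 0.02 for Herpud1 to 1.61 ± 0.34 for Hspa5 (edgeR adjusted p = 0.11). Hspa5 stood at 105 and 90.8 RPKM without IL-21, 193 and 336 with it, and 204 and 156 with iSTAT3 added. Both IL-21 groups lay above the untreated one. The 4 trNK genes summed to 1100 and 965 RPKM without IL-21, 313 and 367 with it, and 227 and 234 with iSTAT3 added, and their part in the values of this culture was not tested.

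With iSTAT3 added to IL-21, the PERK branch genes Ddit3 and Ppp1r15a rose and none fell, 2 of 25 genes where 1.8% of all genes were called higher and 1.15% lower. Ddit3 stood at 71.2 and 50.7 RPKM without IL-21, 83.7 and 77.3 with IL-21, and 233 and 373 with IL-21 and iSTAT3. Ppp1r15a stood at 13.9 and 10.0, 16.9 and 16.2, and 111 and 78.4 RPKM in the same order. For both genes the libraries with iSTAT3 lay above all 4 others.

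The log2 fold changes against IL-21 alone were 2.02 ± 0.36 for Ddit3 (edgeR adjusted p = 0.035) and 2.61 ± 0.35 for Ppp1r15a (edgeR adjusted p = 0.015). Neither gene was called with another filter that tests many more genes, or with a replicate block. The count fell to 0 without either IL-21 replicate or without iSTAT3 replicate 1, and to 1 without iSTAT3 replicate 2. The lowest values were those of Manf (-1.02 ± 0.34, edgeR adjusted p = 0.17) and Creld2 (-1.02 ± 0.52, edgeR adjusted p = 0.33), with a list median of 0.02 against -0.03 for all genes.

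Against the culture without IL-21, the same 2 genes of 25 rose with IL-21 and iSTAT3 and none fell, beside 2.93% of all genes called higher and 1.8% lower. The values were 2.61 ± 0.37 for Ddit3 (edgeR adjusted p = 0.012) and 3.27 ± 0.36 for Ppp1r15a (edgeR adjusted p = 0.0056). Only Ppp1r15a was called without either replicate of the untreated culture, where the adjusted p of Ddit3 was 0.054 and 0.080. The lowest was Sdf2l1 at -0.10 ± 0.28 (edgeR adjusted p = 0.89), and the median was 0.78 against -0.02. These comparisons share libraries, so their values are not independent.

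Of the other secretory and stress genes, 2 of 50 rose and 0 fell with IL-21 and iSTAT3 against the untreated culture, near the 2.93% of all genes called higher. Both are transcription factors that act with Ddit3. Atf4 gave 1.70 (edgeR adjusted p = 0.043). Atf3 had counts of 45 and 1 without IL-21 and 1464 and 1577 with IL-21 and iSTAT3, so its fold change rests on few counts. It entered the test only through the libraries with iSTAT3, so the direction of its call was set by the filter. None of the 50 was called in the other 2 comparisons of this culture.

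**Figure D3:**
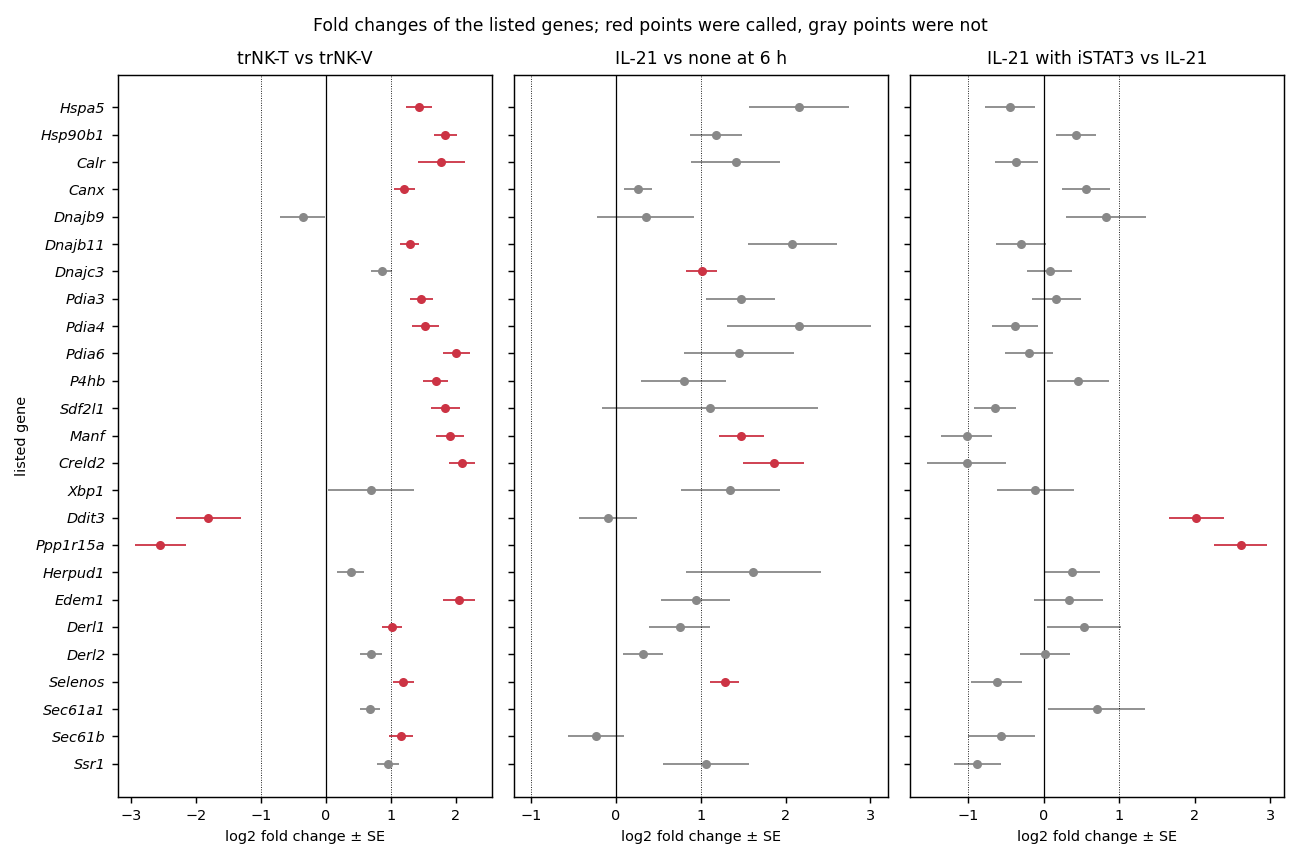
Log2 fold change with its SE (horizontal bars) of each tested gene in 3 comparisons, trNK-T against trNK-V, IL-21 against none at 6 h, and IL-21 with iSTAT3 against IL-21; red points were called, gray points were not, and dotted lines mark the fold limit of 2. Folding genes lie on the right in the first panel with Ddit3 and Ppp1r15a far to the left, while in the third panel these 2 genes are the called ones on the right.

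The time course separated early from late effects of IL-21. At 0 h, 0 of 23 genes passed by edgeR and 0% of all 3503 genes were called in either direction. No listed gene had an unadjusted p under 0.05, beside 110 of all 3503, and DESeq2 and limma-voom called 0. The extremes were Pdia4 at 0.94 ± 0.82 and Dnajb9 at -0.49 ± 0.57, both with an edgeR adjusted p of 1. At 6 h, 4 of 23 rose and none fell, while 0.599% of all genes were called higher and 1.37% lower, and the list's median log2 fold change was 1.18 against -0.02. The 23 include Dnajb11, Pdia4, Herpud1 and Ssr1, which entered only through libraries with IL-21, so the filter favoured their rise. Mitochondrial genes took 3.57% and 3.78% of counts at 6 h without IL-21 and 2.54% and 1.9% with it, and the 4 trNK genes summed to 1310 and 1250 RPKM without and 578 and 617 with it. The part of these in the 6 h values was not tested.

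Selenos stood at 124 and 105 RPKM at 6 h without IL-21 and at 279 and 292 with it, a log2 fold change of 1.28 ± 0.17 (edgeR adjusted p = 0.0036). Manf stood at 85.8 and 82.7 against 234 and 248 RPKM, with 1.48 ± 0.26 (edgeR adjusted p = 0.015). Creld2 stood at 48.3 and 29.8 against 149 and 138 RPKM, with 1.86 ± 0.36 (edgeR adjusted p = 0.026). All 3 had their highest values of the time course in the 6 h libraries with IL-21. Dnajc3, at 29.7 and 28.3 against 60.1 and 59.5 RPKM, gave 1.01 ± 0.18 (edgeR adjusted p = 0.015).

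The largest fitted changes at 6 h were those of Hspa5 and Pdia4, and neither passed. Hspa5 stood at 36.6 and 22.3 RPKM without and 103 and 166 with IL-21 (2.16 ± 0.59, edgeR adjusted p = 0.11). Pdia4, which entered the test only through libraries with IL-21, gave 2.16 ± 0.85 (edgeR adjusted p = 0.31). Xbp1, at 63.1 and 41.4 against 126 and 145 RPKM, gave 1.35 ± 0.58 (edgeR adjusted p = 0.36), with no overlap. The lowest was Sec61b at -0.23 ± 0.33 (edgeR adjusted p = 0.92). Of the 23, 13 had an unadjusted p under 0.05, beside 429 of all 3503 genes, and DESeq2 called 8 and limma-voom 6. The count fell to 0 without 6 h replicate 2 and to 1 without 6 h replicate 1 or either 6 h replicate with IL-21.

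At 24 h, Ddit3 fell and none of the 23 rose, beside 0.343% of all genes called higher and 1.31% lower. Ddit3 stood at 33 and 37.3 RPKM without IL-21 and 13.7 and 9.99 with it, -1.67 ± 0.35 (edgeR adjusted p = 0.035). The call was lost without any 1 of the 4 libraries. The median of the list was 0.88 against 0.01 for all genes, and Hspa5 had the largest positive value (2.06 ± 0.59, edgeR adjusted p = 0.12), at 21.6 and 14.8 against 95.1 and 68.4 RPKM. The list includes genes that entered the test only through libraries with IL-21, for which the filter favoured a rise. At an unadjusted p under 0.05 there were 13, beside 527 of all 3503 genes, and DESeq2 called 5. Mitochondrial shares were 4.76% and 4.58% without IL-21 and 2.28% and 2.8% with it, and the trNK genes summed to 1500 and 1400 RPKM against 898 and 866, whose part in the 24 h values was not tested.

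At 72 h, Derl1 rose and none fell, 1 of 23, beside 6.57% of all genes called higher and 1.51% lower. This count is not above the share of all genes called higher. Derl1 stood at 7.02 and 3.80 RPKM without IL-21 and 21.2 and 10.5 with it, 1.45 ± 0.37 (edgeR adjusted p = 0.033). The largest value was Pdia4 at 1.97 ± 0.85 (edgeR adjusted p = 0.18), and the lowest Ddit3 at -0.59 ± 0.34 (edgeR adjusted p = 0.31). Replicates differed strongly here: 2 of 23 genes were higher in replicate 2 with IL-21, with a median of -0.77 and Sdf2l1 at 59.4 and 0.190 RPKM. The count was 3 without 72 h replicate 2, 2 without 72 h IL-21 replicate 1 and 4 without 72 h IL-21 replicate 2, and Derl1 itself was lost without the first of these (edgeR adjusted p = 0.10) and the second (0.13). The mitochondrial shares given above were higher in the 72 h libraries without IL-21, and their part in these values was not tested.

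The difference between the IL-21 effects at 72 h and at 6 h was tested directly. Selenos was the only 1 of 23 genes called, and in the negative direction, where 3.6% of all genes were called positive and 0.571% negative. At 72 h Selenos stood at 134 and 127 RPKM without and 154 and 118 with IL-21, so its effect was smaller by 1.30 ± 0.24 on the log2 scale than at 6 h (edgeR adjusted p = 0.0099). Creld2 had the most negative value (-1.98 ± 0.50, edgeR adjusted p = 0.052) and Derl1 the most positive (0.70 ± 0.51, edgeR adjusted p = 0.55). The median was -0.62 against 0.14 for all genes. The count was 0 without 6 h replicate 2 or 6 h IL-21 replicate 2, 4 without 72 h replicate 1, and 2 without 72 h replicate 2 or 72 h IL-21 replicate 1.

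**Figure D4:**
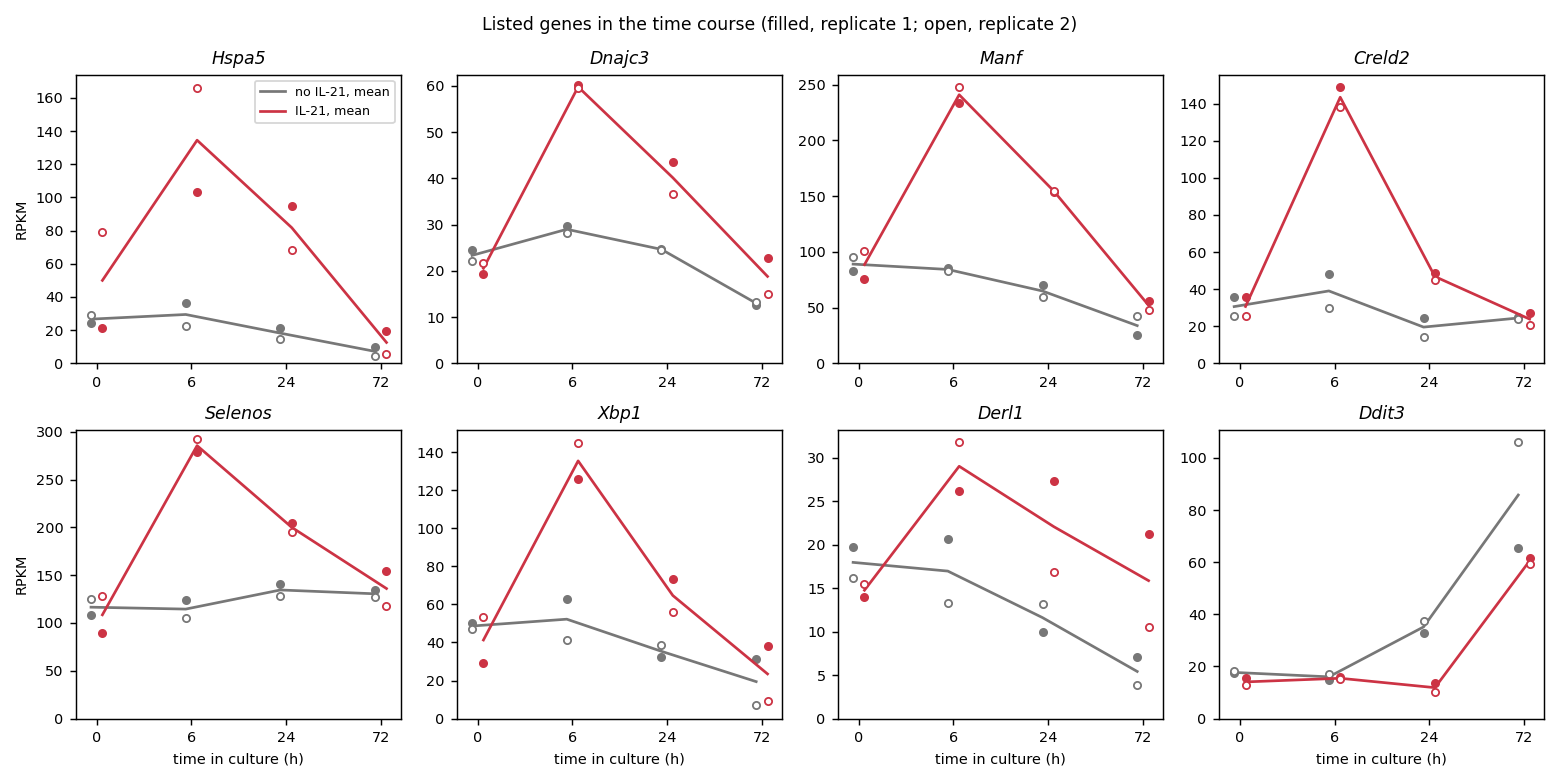
RPKM of 8 listed genes in the time course without IL-21 (gray) and with it (red); filled and open points are replicates 1 and 2, lines join group means, and the 4 time points are evenly spaced rather than to scale. Creld2 with IL-21 peaks at 149 and 138 at 6 h, and Ddit3 without IL-21 reaches 65.5 and 106 at 72 h.

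Without IL-21, calls on the list came only between 24 and 72 h. Between 0 and 6 h, 0 of 23 genes passed by edgeR and 0% of all genes were called in either direction. No listed gene passed an unadjusted p of 0.05, beside 106 of all 3503, and 0 passed by DESeq2 or limma-voom. The extremes were Dnajb9 at 0.43 ± 0.57 and Pdia4 at -0.38 ± 0.82. Between 6 and 24 h, 0 passed by edgeR, beside 0.0856% of all genes called higher and 0% lower. At an unadjusted p under 0.05 there were 2, beside 197 of all 3503 genes, with 1 by DESeq2 and 0 by limma-voom. Ddit3 had the highest value (1.26 ± 0.34, edgeR adjusted p = 0.55), from 14.9 and 17.1 to 33 and 37.3 RPKM, and Edem1 the lowest (-0.90 ± 0.41, edgeR adjusted p = 0.87). Edem1 entered the test only through its 6 h levels, so the filter favoured a fall after 6 h.

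Between 24 and 72 h, Ddit3 rose while Pdia3 and Edem1 fell, 1 and 2 of 23, beside 4.97% of all genes called higher and 9.82% lower. Both counts are near the shares of all genes. Ddit3 reached 65.5 and 106 RPKM at 72 h, 1.66 ± 0.35 (edgeR adjusted p = 0.0087). Pdia3 went from 110 and 105 to 22.3 and 42.5 RPKM (-1.34 ± 0.41, edgeR adjusted p = 0.046), and Edem1 from 3.74 and 6.26 to 1.58 and 1.25 RPKM (-1.48 ± 0.42, edgeR adjusted p = 0.033). These Edem1 levels all lie under the filter limit of 10 RPKM, since Edem1 entered the test through its 6 h levels. The lowest fitted value was Sdf2l1 at -2.54 ± 1.34 (edgeR adjusted p = 0.22). The count was 1 without 24 h replicate 1, 0 without 24 h replicate 2 and 5 without 72 h replicate 1. The median was -0.56 against -0.04 for all genes. Mitochondrial genes took 4.76% and 4.58% of counts at 24 h and 8.44% and 11.77% at 72 h, and the 72 h replicates correlated least of all groups (r = 0.766), whose part in these values was not tested.

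Of the 35 other secretory genes tested in the time course, none was called at 0, 6 or 24 h with IL-21, 3 rose at 72 h with IL-21 and 5 fell between 24 and 72 h without it. These shares are near those over all genes, of which 6.57% were called higher and 9.82% lower in the same comparisons. Erp44 (1.67), which retains clients in the early secretory pathway, Ssr2 (1.26) and Tmbim6 (1.09) rose with IL-21, and the same 3 fell without it (-1.36, -1.15 and -1.05), a pair of comparisons that share the 72 h libraries without IL-21. Spcs3 of the signal peptidase (-1.76) and Mcfd2, with counts of 29 and 0 at 72 h, were the other 2 that fell.

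Over all 17 comparisons, Ddit3 was called most often, higher in 3 and lower in 2 of them, followed by Creld2, Ppp1r15a and Selenos with 3 calls each. Creld2 was higher each time, Selenos was higher in 2 and negative in the test between IL-21 effects, and Ppp1r15a was higher in 2 and lower in 1 of the 9 comparisons in which it was tested. Dnajb9, Xbp1, Herpud1, Derl2, Sec61a1, Ssr1 and Syvn1 were tested and never called. Many comparisons share libraries, so these counts are a description.

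In single cells, 15175 cells carried counts in both files, and 8907 were kept with more than 200 and fewer than 2500 genes and under 10% mitochondrial counts. The upper limit left out many cells, since 4171 had 2500 genes or more. The terminal-stage-like clusters below were the deepest, and their level with no upper limit is given at the end. The cells kept formed 18 clusters without the listed genes, of which 7 kept no name. The cells carry no sample tag here, so virgin and gd8.5 cells could not be compared and no test was made. Levels are summed molecule counts of a class, scaled to all its molecules (CPM), with exact Poisson 95% intervals that cover counting error only.

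The summed level of the listed genes was highest in a cluster with terminal-stage markers, and 17 of the 31 genes had their highest level in 1 of the 2 such clusters, the other 14 elsewhere, among classes and clusters of at least 50 cells. For 10 of the 17 the interval lay apart from that of the next class. The share of all genes highest in these clusters was not computed, so these counts do not set the list apart from other genes. The terminal-stage list held Tnfrsf9, Cd55, Gzmb, Prf1, Spp1, Klrg1, Scin, Epas1 and Ctsg. Cluster 2 (930 cells, led by Gzmf, Gzmc, Gzme and Gzmd) took the name from 5 raised markers, and the rest of the list was not raised. There the 31 genes summed to 11600 CPM (11500 to 11700). Cluster 5, of the same name and also with 5 raised markers (706 cells, led by Mt2, Tdrd9 and Ctsg), reached 8040 (7950 to 8130). Virginal-stage-like cells had 6690 (6580 to 6790, 968 cells) and conventional NK (cNK)-like cells 7110 (6990 to 7230, 1052 cells). Both terminal-stage-like clusters thus lay above both of these, beyond counting error. Cluster 5 lay below dividing-like cells at 8720 (8590 to 8840) and beside the unnamed cluster 6 at 8100 (7980 to 8220). Erythrocyte-like cells were lowest at 3890 (3650 to 4140). Median molecules per cell were 5158 and 5705 in the terminal-stage-like clusters, 2262 in virginal-stage-like and 1725 in cNK-like cells, and the part of this depth gap was not tested.

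The 2 terminal-stage-like clusters were unlike each other. Hspa5 was 1850 CPM in cluster 2, the highest of all classes, but 919 in cluster 5, below the 1440 of virginal-stage-like cells. Calr was 2030 and 1430 CPM in the 2 clusters against 941 in virginal-stage-like cells. Sec61b went the other way, at 938 in cluster 2 and 1470 in cluster 5. Creld2 stood at 161 and 117 CPM against 63.5, and Sdf2l1 at 282 and 296 against 86.9 in virginal-stage-like cells.

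Ppp1r15a was 73.7 CPM in cluster 2 and 20.0 in cluster 5, the lowest of all classes, against 306 in virginal-stage-like and 488 in macrophage-like cells. Ddit3 was 15.3 and 9.87 CPM in the 2 clusters, 57.2 in virginal-stage-like and 70.6 in cNK-like cells. Both genes of the PERK branch thus stood lower in terminal-stage-like than in virginal-stage-like cells, the order seen between trNK-T and trNK-V. Among the members highest in other classes were P4hb in stromal-like cells (620), Syvn1 in B-like cells (253) and Xbp1 in the unnamed cluster 14 (321), led by Ace and Serpinb10. No cluster took the name plasma cell-like. B-like cells had 4 plasma cell markers raised and held 953 of the 977 Jchain molecules in the cells kept (1540 CPM), with no molecule of Mzb1, of which all cells kept held 1.

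**Figure D5:**
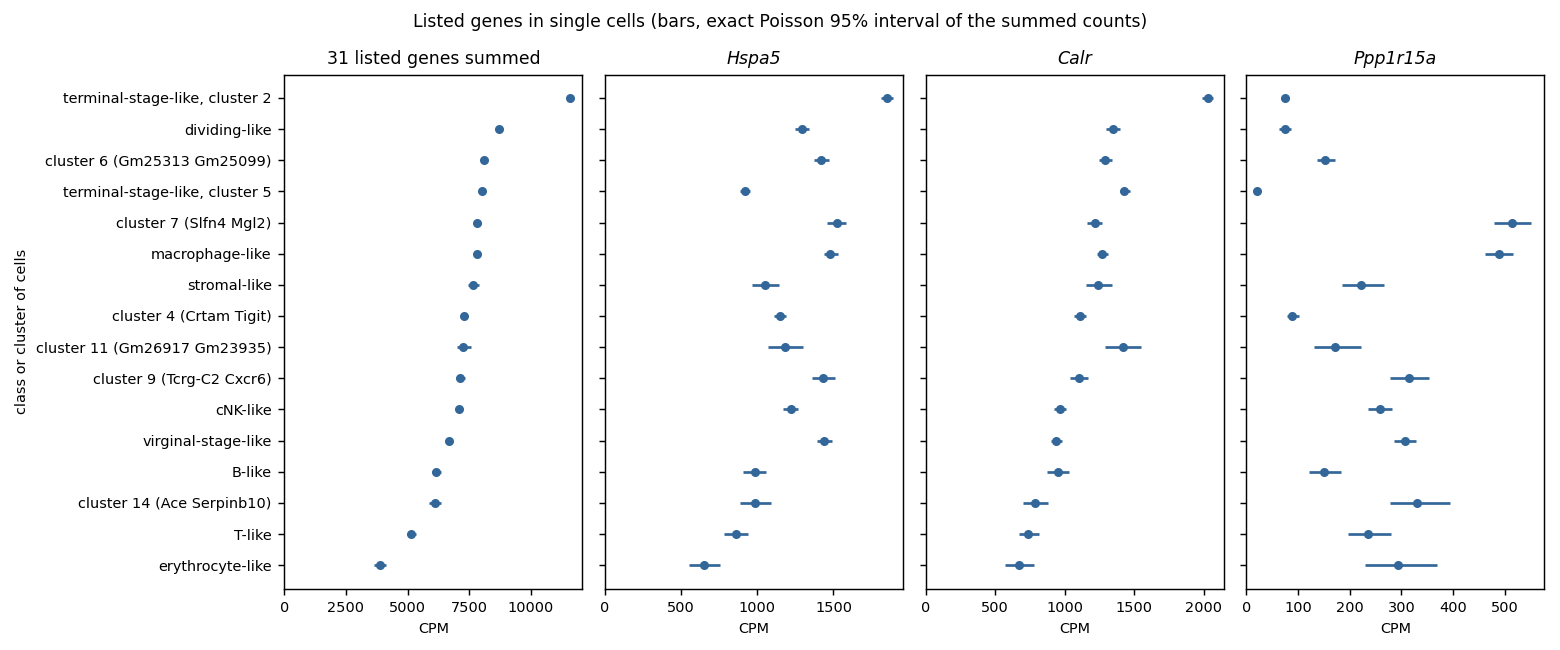
Summed CPM of the 31 listed genes with a column, and CPM of Hspa5, Calr and Ppp1r15a, in classes and unnamed clusters of single cells; bars are exact Poisson 95% intervals of the summed counts and do not cover differences between animals. Terminal-stage-like cluster 2 leads with 11600 CPM in sum, while Ppp1r15a is lowest in terminal-stage-like cluster 5 at 20.0 CPM.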

How the data were processed

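The bulk libraries and the single cells were grouped by their labels. Chromatin accessibility samples were not analysed here. For bulk RNA-Seq, the authors deposited unnormalized whole-number read counts per gene with exon positions and lengths. The submitters' processing notes name HISAT2 2.1.0, mm10 and featureCounts (Subread), and the study's methods name RSEM. For single cells, the authors deposited molecule counts for every cell and gene, made by the BD Rhapsody software on GRCm39. The 2 files list the same cells with different genes, and were joined.

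RPKM were computed from counts and exon lengths. Genes passed a filter where both libraries of at least 1 group exceeded 10 RPKM. TMM scaling and edgeR 4.0.16 (quasi-likelihood, 1 fit over all groups of an experiment, no covariates) in R 4.3.3 were then applied. Adjustment was by Benjamini-Hochberg over all tested genes, and a gene was called when its adjusted p lay under 0.05 and it changed over 2-fold. SE were derived from the log2 fold change and its F statistic. The test was tried on simulated data beforehand. Replicate spread, not depth, limits the bulk values, and counting intervals cover counting error only.

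Alternatives were DESeq2 1.42.0, limma-voom 3.58.1, another filter, a replicate block, no fold limit, and leaving out each library. The omission of trNK-D replicate 2 from the trNK-T against trNK-V fit was chosen after seeing the data. The labels do not say whether same-numbered libraries are paired, and the main fit did not pair them. Correlations of deviations over same-numbered pairs ranged from -0.31 to 0.11 in gestation, -0.01 to 0.39 in the subsets, -0.43 to 0.54 in the 72 h culture and -0.34 to 0.41 in the time course.

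Members and lists were chosen with earlier results of these data known. All 33 genes are accounted for. In each comparison the called members and the highest and lowest member are named, with up to 5 called genes of the other secretory list. Further members were named after their values were seen. Ddit3 was taken from the record with the longer exon length, and reads shared with a short overlapping record of the same name may be uncounted.

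Single cells were clustered in scanpy 1.11.5 with leidenalg 0.10.2 on 2000 variable genes, 20 components, 20 neighbours and a resolution of 0.8, leaving out the listed genes. Classes were named from marker lists, and names are rebuilt, not the authors'. Scrublet called 1 cell (0.0112%) and so did not work, so doublets were not removed. Promoter windows are RefSeq's, GRCm38.p6.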

Additional observations from a re-analysis of the deposited data

Results flagged for a closer look

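Selenos, a membrane selenoprotein of the retrotranslocation complex, responded differently to IL-21 at 2 time points. The difference of its effects at 72 h and at 6 h was -1.30 on the log2 scale in edgeR's test of the difference (adjusted p = 0.0099), with an effect of 1.28 at 6 h and -0.02 at 72 h. The adjusted p over the other settings ran from 5e-07 to 0.055, and the call was lost without 6 h replicate 2 (0.054) or 6 h IL-21 replicate 2 (0.055).

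Plasma cell transcripts appeared in trNK-D replicate 2, where the 12 markers summed to 27700 RPKM against 48.8 to 508 in the other 33 libraries. In those 33 libraries most of the sum was Ighm. The 12 markers are outside the listed genes, and their part in the trNK-D values was not tested.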

How the results depend on the processing

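No called gene changed direction under any alternative run. Over 36 calls and 311 recomputed values, 232 kept the call and 79 lost it, 58 of them among the 166 values that leave out a library. DESeq2 kept all 36 calls and limma-voom kept 35, whereas the filterByExpr filter, which tests many more genes, lost 13 and the replicate block lost 6. The fit of only the groups compared was run for the gestation comparisons alone and lost their 1 call. The causes were not tested.

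Counts of called genes moved as follows. Here and above, counts by DESeq2, by limma-voom and without single libraries stand without the share of all genes called in the same setting. For gd6.5 against virgin (1 in the report) they were 4 by DESeq2, 3 by limma-voom, 2 with no fold limit, and 0 under filterByExpr, the replicate block or only the groups compared. By DESeq2 they were 1 for gd8.5 against gd6.5 (also 1 with only the groups compared), 2 for trNK-D against trNK-V, 6 for trNK-T against trNK-D, 3 for IL-21 in the 72 h culture, 8 at 6 h, 5 at 24 h, 2 at 72 h, 1 for 24 h against 6 h and 3 for the difference between IL-21 effects, where limma-voom gave 2. Under filterByExpr they were 0 for trNK-T against trNK-D, for iSTAT3 against IL-21 and at 24 h, 1 for iSTAT3 against none and at 6 h, 5 for 72 h against 24 h and 2 for the difference between effects. Under the replicate block they were 0 for iSTAT3 against IL-21 and at 24 h, 1 for iSTAT3 against none and 2 for the difference between effects, and the block moved no other count by over 1.5 times. Samples share only a number, so whether the block reflects a pairing is unknown.

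Without single libraries the counts ranged from 0 to 12 for gd6.5 against virgin, 0 to 6 for gd8.5 against virgin, 16 to 18 for trNK-T against trNK-V, 0 to 0 for trNK-T against trNK-D, 0 to 1 for iSTAT3 against IL-21, 1 to 2 for iSTAT3 against none, 0 to 1 at 6 h, 0 to 0 at 24 h, 1 to 4 at 72 h, 0 to 5 for 72 h against 24 h and 0 to 4 for the difference between effects.

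The share of all called genes that were higher moved between edgeR with TMM and DESeq2 with its size factors, which differ in test as well as scaling, from 5.26% to 21.3% for gd8.5 against virgin, 80% to 50.3% for trNK-D against trNK-V, 100% to 63.6% for IL-21 in the 72 h culture, 100% to 76.9% for 24 h against 6 h and 86.3% to 74.8% for the difference between effects.

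In single cells, terminal-stage-like cells had 9930 CPM in sum, 11100 with limits set on molecules per cell (260 cells) and 8230 with no upper limit (1881 cells), and cNK-like cells had 7110, or 6810 with limits on molecules.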
